A study of Mus musculus with 8 samples.

Results

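Gene expression was measured in the whole liver of 4 female (XX) C57BL6 mice aged 10 to 11 weeks, 2 of them labelled wild type and 2 labelled as having a deficiency of Bcl6 confined to the liver. Each group held the samples numbered 3 and 4. One-colour Agilent microarrays were used, with 1 array per liver, and 4 male livers of the same 2 genotype labels were on the same slide. The members described here are the genes whose probe stood well above background on the arrays of both livers of a female group, or of both groups. They were 23467 of the 23870 genes tested over all 8 arrays, and 14321 of them carried a gene symbol. Of the members, 1714 passed through 1 female group only, 974 through the livers labelled Bcl6-deficient and 740 through the wild-type livers. The labels name no Cre driver, allele or littermate relation and describe the replicates merely as separate samples. The p-values therefore reflect the spread between livers of the same group over all 8 arrays, males included, and that spread may be technical. Below, "deficient-label" stands for the livers labelled Bcl6-deficient, because the signal of Bcl6 itself was not lower in them.

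Bcl6 is a zinc-finger transcription factor that represses its targets through corepressors, and it is best known in germinal centre B cells. In liver it is one of the factors that act downstream of pituitary growth hormone. Growth hormone signals through its receptor, the kinase Jak2 and the transcription factor Stat5, and its sex-specific pattern of release sets much of the difference between male and female liver. Stat5 and Bcl6 are known to bind overlapping sites in hepatocytes, one as an activator and the other as a repressor.

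All levels are log2 signals set against the array's own 75th percentile, and all differences are deficient-label minus wild type on the log2 scale with the standard error of limma's fit (n = 2 arrays per group). A difference of 1 is therefore a factor of 2. A gene is called where its p-value, adjusted by Benjamini-Hochberg over all genes tested, lies under 0.05. Levels of different genes were not compared, since probes differ in brightness. For a gene that stayed near background in both livers of a group, a fold is given as a lower bound ("at least"). The bound divides the mean of the brighter group by the weakest signal still scored as above background on the dim arrays, or by the measured dim signal where that was stronger.

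Between 52.5% and 54.1% of 56605 probes were well above background on the female arrays, and precision is limited by the number of arrays. Replicates correlated across genes at r = 0.9902 in wild-type and 0.9936 in deficient-label livers. The slide held the wild-type livers in its outer columns and the deficient-label livers in its inner ones, so slide column and genotype label cannot be told apart. The signal of Bcl6 was 2.02 and 4.16 in the wild-type livers and 4.04 and 4.82 in the deficient-label livers. The groups overlapped, and the difference was 1.34 ± 0.57 (adjusted p = 0.232). Without wild-type replicate 4 it was 2.41 (adjusted p = 0.00364). The array holds 1 Bcl6 probe, and where it lies relative to the deleted part is not known here, so it may check nothing. Xist was 0.90 and 0.63 in wild-type and 0.69 and 0.41 in deficient-label livers, and no listed Y-linked gene was above background on a female array. All 12 hepatocyte markers were measured and none was called, with a summed linear signal of 4178 and 4462 in wild-type and 4998 and 4950 in deficient-label livers. None of 14 Kupffer cell markers was called, but all 14 lay below 0 (median -0.40), and their summed signal was 275 and 279 against 221 and 215. None of the measured T or NK cell, B cell, neutrophil and stellate cell markers was called. All 7 B or plasma cell markers lay above 0 (median 0.45), as did 9 of 11 stellate cell markers (median 0.28). Only 3 of 11 T or NK cell markers (median -0.31) and none of 6 neutrophil markers (median -0.17) did. Of 7 cholangiocyte markers 1 rose and 1 fell, the latter Sox9 (-1.32, adjusted p = 0.039), which was chosen after its values were seen and was not called without any 1 of the 4 female arrays. In addition, 2 of 13 endothelial markers rose (1 without wild-type replicate 4 or either deficient-label replicate). The steadier was Vwf, the von Willebrand factor, at 1.45 and 1.43 in wild-type and 3.99 and 3.23 in deficient-label livers (2.17 ± 0.29, adjusted p = 0.00208). In whole liver, fewer cells of a type and less RNA per cell cannot be told apart.

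Of 23467 members, 1929 were called (8.22%), 1026 higher (4.37%) and 903 lower (3.85%) in deficient-label livers. At least 2-fold differences were seen in 1065 (4.54%), 656 higher and 409 lower, and with normexp background correction, which adds an offset to every signal, in 571. At least 8-fold differences were seen in 156 genes that rose and 48 that fell. These counts include genes that passed the filter only through the group where they are high. Among the 21753 members above background on all 4 arrays, 64 rose and 29 fell by at least 8-fold, and with that filter the calls numbered 850 higher and 823 lower. The median difference of the called genes was 1.27 among those that rose and -0.95 among those that fell, beside -0.02 over all members. Of the called genes, 1404 had a symbol. Without deficient-label replicate 3 there were 877 calls, without deficient-label replicate 4 there were 1017, and without wild-type replicate 3 there were 1286.

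**Figure D1:**
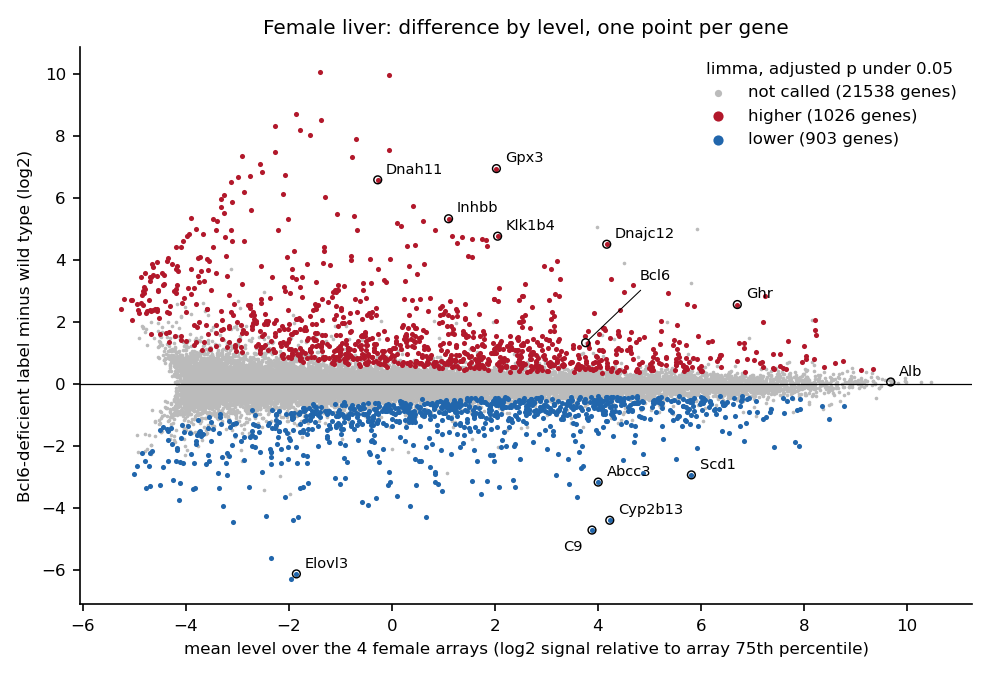
Each point is 1 of the 23467 genes, with its mean log2 level over the 4 female arrays on the x axis and its deficient-label minus wild-type difference (log2) on the y axis. The 1026 genes called higher reach larger sizes than the 903 called lower, and the median of all genes lies at -0.02.

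Among genes called and well above background on all 4 female arrays, the largest rise was that of Gpx3, the secreted glutathione peroxidase of plasma. Gpx3 was -1.35 and -1.54 in wild-type livers and 5.65 and 5.37 in deficient-label livers, a difference of 6.95 ± 0.14 (adjusted p = 1.11e-07). The gap between the groups was far wider than that between replicates. Dnah11, a dynein heavy chain of motile cilia, was -3.52 and -3.63 against 3.19 and 2.85 (6.59 ± 0.21, adjusted p = 6.68e-07). Inhbb, which encodes the beta B subunit of activin and inhibin, was -1.67 and -1.47 against 3.63 and 3.90 (5.34 ± 0.26, adjusted p = 5.06e-06). For all 3 genes both deficient-label livers lay far above both wild-type livers. The female groups were separate in all 1929 called genes, so such separation, here and below, adds nothing to a call.

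Further large rises came from unrelated families. The tight junction protein Marveld3 was -3.78 and -3.84 in wild-type and 2.13 and 1.25 in deficient-label livers (5.50 ± 0.29). Ankrd2, an ankyrin repeat protein best known from muscle, was -1.83 and -1.45 against 3.30 and 3.36 (4.97 ± 0.21). Dnajc12, a cochaperone of the aromatic amino acid hydroxylases, was 1.89 and 1.94 against 6.44 and 6.41 (4.51 ± 0.13, adjusted p = 5.33e-07). Like Gpx3, Dnah11 and Inhbb, Dnajc12 was well above background in wild-type livers as well. Fgf11, an intracellular member of the fibroblast growth factor family, was -2.11 and -2.89 against 2.78 and 2.62 by its brightest probe (5.20 ± 0.33). A further Fgf11 probe gave 5.94 and the remaining one 0.57 (adjusted p = 0.391), so the probes of Fgf11 disagree.

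Several genes were not well above background in either wild-type liver and were bright in both deficient-label livers. The adrenergic receptor Adra2c was at least 143-fold higher. The organic cation transporter Slc22a2 was at least 111-fold higher. Insrr, a relative of the insulin receptor, was at least 96.5-fold higher. The collagen Col22a1 was at least 73.1-fold higher by its brightest probe, while another Col22a1 probe, above background on all 4 arrays, differed by 0.30 (adjusted p = 0.834). Gm32448 was at least 54.3-fold higher and the sortilin-family receptor Sorcs2 at least 37.7-fold. The respiratory chain subunit Cox8b, an isoform best known from heart and brown fat, was chosen after its values were seen and was at least 145-fold higher. Its deficient-label replicates, at 3.59 and 2.20, differed by more than 1 log2 unit.

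The largest fall among called genes above background on all 4 female arrays was that of C9, the pore-forming last component of complement. C9 was 6.71 and 5.77 in wild-type livers and 1.53 in both deficient-label livers (-4.71 ± 0.46, adjusted p = 0.000354). The cytochrome P450 Cyp2b13, an enzyme of female mouse liver, was 6.10 and 6.75 against 2.33 and 1.74 (-4.39 ± 0.32, adjusted p = 6.4e-05). The ileal-type bile acid transporter Slc10a2 was 1.73 and 1.34 against -1.98 and -2.31 (-3.69 ± 0.28). Each of these falls was many times the gap between replicates. Mfsd2a, a transporter of lysophospholipids, was 3.94 and 3.06 against -0.36 and 0.28 (-3.54 ± 0.32, adjusted p = 0.000228). The receptor Ildr2 (-3.60), the serpin Serpinb1a (-3.32), the calcineurin regulator Rcan2 (-3.16) and the adenosine receptor Adora1 (-3.02) belonged to the same size class. Adrb3, an adrenergic receptor, fell by 3.35 by its brightest probe, beside -1.24 by another (adjusted p = 0.0591). The desaturase Scd3 fell by 3.24, beside 0.46 by another Scd3 probe (adjusted p = 0.107).

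Other genes fell below background. Elovl3, a fatty acid elongase that is typical of male liver, was 1.62 and 0.79 in wild-type livers and not well above background in either deficient-label liver, at least 44.3-fold lower. The anion transporter Slc26a4 was at least 7.7-fold lower, and Adam32, Gal3st1, Dreh and Lipg were at least 4.99-fold, 4.35-fold, 3.98-fold and 3.85-fold lower.

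**Figure D2:**
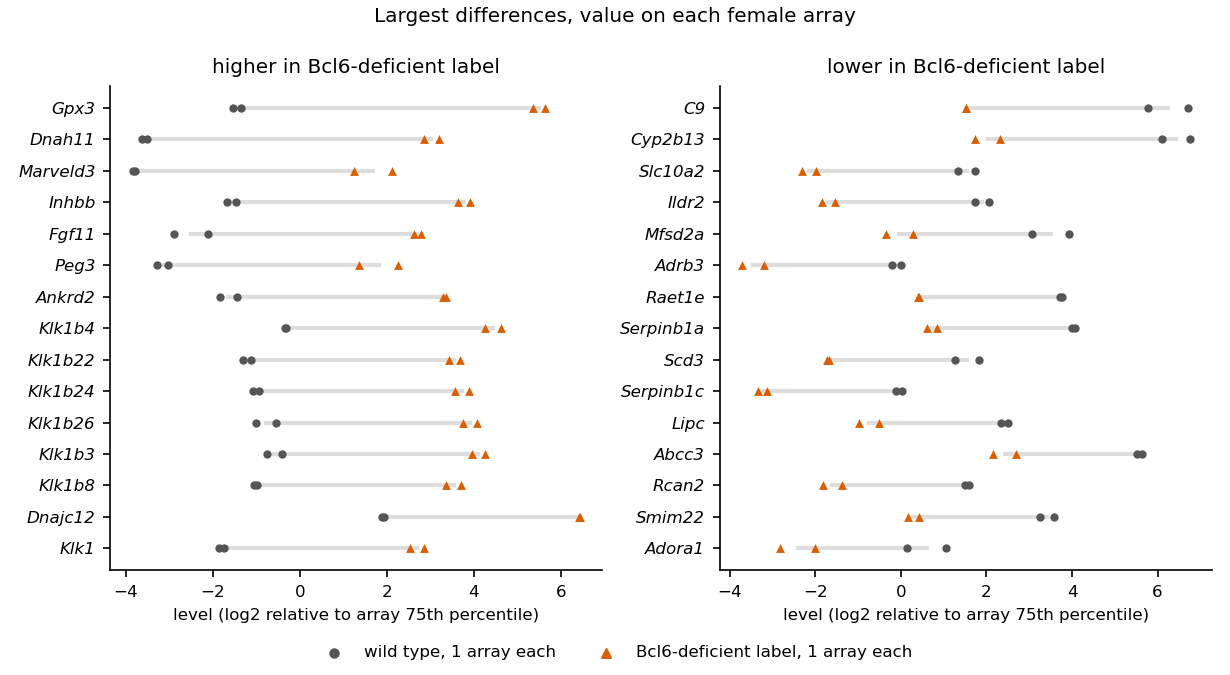
Log2 levels (x axis, set against the array's 75th percentile) of 15 genes in each direction, with 1 point per female array, circles for wild type and triangles for the deficient label. They have the largest differences among called genes that are above background on all 4 arrays, whose call held without each array and whose replicates differed by under 1, so close replicates and separate groups follow from this choice. The differences shown reach 6.95 for Gpx3 and -4.71 for C9.

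Most of the glandular kallikreins that could be measured rose. Kallikreins are secreted serine proteases, and in the mouse they form a dense cluster of similar genes on chromosome 7 that is mainly active in the submandibular gland. Of 14 listed members, 9 were measured in liver and 8 of these rose, with a median difference of 4.69. Klk1b4 was -0.33 and -0.34 in wild-type and 4.62 and 4.26 in deficient-label livers (4.77 ± 0.14). Klk1b24 was -0.93 and -1.08 against 3.89 and 3.57 (4.74 ± 0.14, adjusted p = 5.33e-07). Klk1b22, Klk1b26, Klk1b3, Klk1b8, Klk1 and Klk1b5 differed by 4.77, 4.70, 4.69, 4.56, 4.49 and 4.46. The 8 differences thus lay close together. Among the 9 measured, Klk1b21 was the exception, at -2.98 and -2.99 in wild-type and -2.83 and -3.27 in deficient-label livers (-0.06 ± 0.26, adjusted p = 0.938). Klk1b1, Klk1b9, Klk1b11, Klk1b16 and Klk1b27 were on the array but not well above background in both livers of either female group. No rise was thus measured for them. Near-identical copies of these genes may share probe signal, which was not tested, so the number of kallikrein genes that rose is uncertain.

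The promoters of Klk1b24, which rose, and of Klk1b21, which gave no call, are shown because they share a long identical stretch. The windows are the 250 bases before the annotated start on the plus strand, from RefSeq on GRCm38.p6, at chr7:44187986-44188235 for Klk1b24 and chr7:44102042-44102291 for Klk1b21. The capitals mark the longest run that is identical in both, 162 bases.
Klk1b24: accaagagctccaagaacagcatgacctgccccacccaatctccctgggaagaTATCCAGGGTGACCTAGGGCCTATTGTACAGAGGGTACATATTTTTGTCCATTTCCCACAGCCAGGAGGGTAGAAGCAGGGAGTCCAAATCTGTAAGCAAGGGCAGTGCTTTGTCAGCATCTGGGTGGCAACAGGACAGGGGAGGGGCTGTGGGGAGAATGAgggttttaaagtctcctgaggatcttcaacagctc
Klk1b21: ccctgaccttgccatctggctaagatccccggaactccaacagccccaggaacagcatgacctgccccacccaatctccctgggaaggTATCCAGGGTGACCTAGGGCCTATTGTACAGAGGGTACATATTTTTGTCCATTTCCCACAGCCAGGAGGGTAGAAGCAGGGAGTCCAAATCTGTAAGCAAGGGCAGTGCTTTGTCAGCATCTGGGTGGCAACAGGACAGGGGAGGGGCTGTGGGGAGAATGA
The shared run ends at the annotated start in Klk1b21 and 36 bases before it in Klk1b24, so the annotated starts of the genes are offset against each other. Identity over the columns of a global alignment was 75.1% for this pair. It was 44.5% to 80.5% (median 69%) over the 21 pairs among kallikreins that rose and have a window, and 44.8% to 75.1% between Klk1b21 and each of them. The Klk1b21 values thus lay inside the range of the other pairs.

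**Figure D3:**
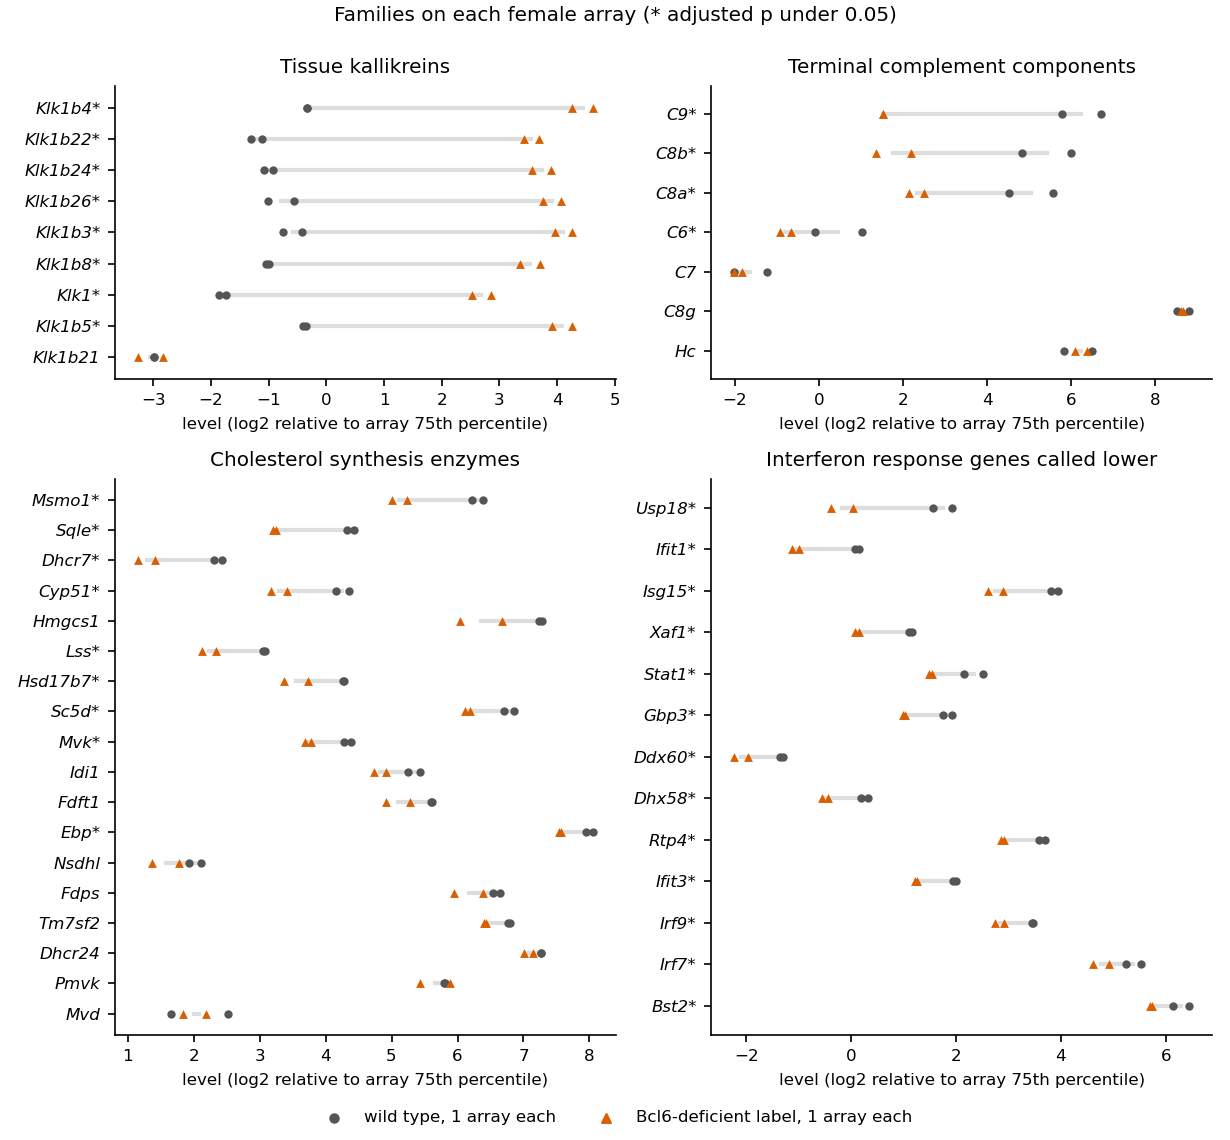
Log2 levels (x axis, 1 point per female array, circles for wild type and triangles for the deficient label) for the glandular kallikreins, the terminal complement components, 18 enzymes of cholesterol synthesis and the interferon-stimulated genes called lower. Of the 9 measured kallikreins, 8 stand higher in deficient-label livers, by a median of 4.69 over the 9, while the groups overlap for Klk1b21.

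Growth hormone signalling genes gave 10 rises and 4 falls among 39 measured members, with a median difference of 0.28. The count of falls was 1 without deficient-label replicate 3, deficient-label replicate 4 or wild-type replicate 3, and 2 without either male wild-type replicate. Of 6 receptors, 3 rose. Ghr, the growth hormone receptor, was 5.44 and 5.41 in wild-type and 7.97 and 8.01 in deficient-label livers (2.57 ± 0.15, adjusted p = 1.58e-05). Prlr, the prolactin receptor, was 4.60 and 4.26 against 7.07 and 6.98 (2.59 ± 0.15, adjusted p = 1.66e-05). Lifr, the receptor of leukaemia inhibitory factor, was chosen after its values were seen, and was 6.37 and 5.28 against 8.80 and 8.52 (2.84 ± 0.29, adjusted p = 0.000418). In all 3 receptors both deficient-label livers lay well above both wild-type livers.

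The feedback inhibitors of the pathway, which Stat5 is known to induce, gave 1 call. Socs2 was 0.97 and 0.24 in wild-type and 3.80 and 2.90 in deficient-label livers (2.74 ± 0.39, adjusted p = 0.00307). Cish was 0.77 and -1.17 against 2.17 and 1.52, and its difference of 2.04 ± 0.57 was not called (adjusted p = 0.0644). Without wild-type replicate 3 it was 3.02 (adjusted p = 0.00417). Igf1, the growth factor through which growth hormone acts on the body, was 7.82 and 7.31 against 7.50 and 7.30 (-0.17, adjusted p = 0.678). The levels of Igf1 overlapped between the groups. The signalling genes Jak2, Stat5a and Stat5b differed by -0.12 (adjusted p = 0.679), 0.33 (adjusted p = 0.549) and 0.20 (adjusted p = 0.45).

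Transcription factors that shape sex-specific liver expression moved in both directions. Cux2, a repressor that is typical of female liver, was -0.56 and -0.03 in wild-type and 2.48 and 1.99 in deficient-label livers (2.53 ± 0.23, adjusted p = 0.000208). Onecut1 was 1.81 and 1.94 against 2.86 and 3.39 (1.25 ± 0.18, adjusted p = 0.00344), Onecut2 rose by 0.87 ± 0.11 and Foxa3 by 1.42 ± 0.14. Foxa1, another forkhead factor, fell from 2.14 and 1.78 to 0.58 and 0.82 (-1.26 ± 0.20, adjusted p = 0.00481). Foxa1 and Foxa3 thus changed in opposite directions. Esr1, the oestrogen receptor, was 2.81 and 2.83 against 3.65 and 3.49 (0.75, adjusted p = 0.0213), and this call was lost without any 1 of the 4 female arrays, with adjusted p between 0.0652 and 0.152. By their own values 2 of the 6 Esr1 probes were called.

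The Stat5 recognition motif TTCNNNGAA, which reads the same on both strands, was counted in the 250 bases before the start of every gene in the RefSeq promoter table. It was found for 2197 of 27025 genes (8.13%), 838 of 11372 members with a window (7.37%), 37 of 556 genes called higher (6.65%) and 41 of 558 called lower (7.35%). Among genes at least 4-fold higher it was found for 8 of 144 (5.56%), and among those at least 4-fold lower for 5 of 70 (7.14%). None of these classes of called genes had a larger share than all members. Prlr has 3 annotated starts, and 1 of its windows holds the motif from position -110 relative to the start, at chr15:10223656-10223905 on the plus strand of GRCm38.p6. It is shown as an example, with the motif in capitals. The window of Cish held no match, and the windows of Ghr and Lifr were not looked at one by one. Of 32 genes of the growth hormone list with a window, 4 held the motif (12.5%).
Prlr: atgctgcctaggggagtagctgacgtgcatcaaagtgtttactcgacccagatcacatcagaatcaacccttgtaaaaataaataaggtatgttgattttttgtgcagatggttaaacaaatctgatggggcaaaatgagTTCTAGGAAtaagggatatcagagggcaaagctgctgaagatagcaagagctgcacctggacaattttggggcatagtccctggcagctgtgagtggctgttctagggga
A match is a description of the letters and not a binding site.

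Genes known to be female-biased in mouse liver rose more often than they fell in these female livers. Of 38 measured members, 15 rose and 4 fell (median 0.73). The count of rises was 8 without either deficient-label replicate. Cyp3a44 was 3.80 and 2.36 in wild-type and 6.17 and 6.39 in deficient-label livers (3.20 ± 0.41, adjusted p = 0.00166). The wild-type replicates of Cyp3a44 differed by more than 1 log2 unit. The cell surface protein Prom1 rose by 2.82 ± 0.36, the ectonucleotidase Nt5e by 1.34 ± 0.13, the fatty acid transporter Cd36 by 1.27 ± 0.20 and the steroid hydroxylase Cyp2a4 by 0.75. Against this direction, Cyp2b13 fell, as given above. Its relatives Cyp2b9 and Cyp2b10 were not called, at 7.66 and 7.79 against 6.93 and 6.99 for Cyp2b9 (-0.77 ± 0.38, adjusted p = 0.312) and at 7.50 and 7.68 against 7.24 and 7.47 for Cyp2b10 (-0.23, adjusted p = 0.802). The acyl transferase Acnat2 fell from 4.31 and 4.40 to 2.01 and 2.20 (-2.25 ± 0.24, adjusted p = 0.000558) and the aldehyde oxidase Aox1 fell by 0.83.

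Male-biased genes moved mainly the other way. Of 32 measured members, 13 fell and 2 rose (median -0.50), and 8 fell without deficient-label replicate 3. Beside Elovl3 and C9, the peroxisomal hydrolase Nudt7 was 7.02 and 6.43 in wild-type and 4.24 and 4.38 in deficient-label livers (-2.42 ± 0.18, adjusted p = 7.02e-05). The steroid hydroxylase Cyp2d9 was 4.41 and 4.28 against 3.31 and 3.17 (-1.10 ± 0.14, adjusted p = 0.00141). The members that rose were the G protein subunit Gna14 (1.89 ± 0.23) and the glutathione transferase Gstp1, at 5.06 and 5.07 against 6.16 and 5.94 (0.98 ± 0.13, adjusted p = 0.00213). Of 8 measured major urinary protein genes, which encode pheromone carriers, 3 fell and none rose, and all 8 lay below 0 (median -0.47). That count was 1 without deficient-label replicate 3 or either wild-type replicate. Mup6 fell by 2.10 ± 0.31 (adjusted p = 0.0038). Mup20 and Mup21 were not called by their brightest probes (-0.38 and -0.12). Another probe of each was lower, at -2.20 for Mup20 (adjusted p = 0.00141) and -1.52 for Mup21 (adjusted p = 0.0118). Copies within the Cyp2b, Cyp2c, Cyp2d, Cyp3a, Gstp and major urinary protein families are similar enough that their probes may share signal, which was not tested.

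Among ligands, receptors, inhibitors and targets of the transforming growth factor beta, activin and bone morphogenetic protein pathways, 6 of 35 members rose and 2 fell (median 0.06), with 1 fall without wild-type replicate 3 or either deficient-label replicate. Inhbb had the largest difference, while Inhba (0.23, adjusted p = 0.494) and Inhbe (-0.38, adjusted p = 0.422), which encode other activin subunits, were not called. Bmp7, a ligand that is not on this list, was -0.64 and -0.57 in wild-type and 3.71 and 3.38 in deficient-label livers (4.15 ± 0.15, adjusted p = 1.28e-06). Id1, a classical target of bone morphogenetic protein signalling, was 1.12 in both wild-type livers and 3.92 and 3.98 in deficient-label livers (2.83 ± 0.22, adjusted p = 9.12e-05). The inhibitory Smad6 was -0.51 and 0.21 against 2.17 and 2.27 (2.37 ± 0.21, adjusted p = 0.000222), while its relative Smad7 differed by -0.14 (adjusted p = 0.743). The receptor Tgfbr2 rose by 1.0. The stress cytokine Gdf15 fell from 3.64 and 3.33 to 2.31 and 2.44 (-1.11 ± 0.14, adjusted p = 0.00142).

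The iron-handling list, which shares Id1, Smad6 and Atoh8 with this pathway, gave 4 rises and no fall among 19 members (median 0.07). Atoh8 rose by 1.31 ± 0.21. Hamp, which encodes hepcidin, the hormone that limits iron uptake, was 7.69 and 8.11 in wild-type and 7.48 and 7.70 in deficient-label livers (-0.31, adjusted p = 0.408), so its groups overlapped. Cp, the copper-carrying ferroxidase of plasma, was 7.56 and 7.30 against 9.11 and 8.95 by its brightest probe (1.60 ± 0.14, adjusted p = 0.000165). Another Cp probe gave 2.15, while 2 further ones gave 0.13 (adjusted p = 0.724) and -0.10 (adjusted p = 0.909). Of 32 antioxidant and metal-binding genes, 6 rose and none fell (median 0.01), and 2 rose without deficient-label replicate 3. Gpx6 was -3.23 and -2.05 against 0.44 and 0.39 (3.05 ± 0.38, adjusted p = 0.00141). The glutathione peroxidases Gpx1 (-0.45, adjusted p = 0.082) and Gpx4 (-0.11, adjusted p = 0.724) were not called.

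Of 31 members of the lipogenesis list, which holds regulators, enzymes of fatty acid synthesis and genes of triglyceride synthesis and lipolysis, 10 fell and 4 rose (median -0.23). The 14 fatty acid synthesis genes among them gave 7 falls and 3 rises (median -0.52). The falls in the whole list numbered 4 without deficient-label replicate 3 and 6 without wild-type replicate 3. The stearoyl-CoA desaturase Scd1, which makes monounsaturated fatty acids, was 7.10 and 7.46 in wild-type and 4.34 and 4.36 in deficient-label livers (-2.93 ± 0.30, adjusted p = 0.000497). Its relative Scd2 differed by -0.20 (adjusted p = 0.784). Pparg, a nuclear receptor that promotes fat storage, was 2.05 and 2.16 against 0.70 and 0.73 (-1.39 ± 0.15, adjusted p = 0.00076). The carboxylase Acaca fell by 0.84 ± 0.12 by its brightest probe, and of its 3 other probes 1 was not called (-0.70, adjusted p = 0.204).

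Fasn, the fatty acid synthase, was 7.24 and 7.77 in wild-type and 5.88 and 6.62 in deficient-label livers (-1.26 ± 0.27, adjusted p = 0.0206). Its call was lost without deficient-label replicate 3 (-0.89, adjusted p = 0.138) or wild-type replicate 4 (-0.99, adjusted p = 0.0917). Srebf1, the transcription factor that drives this pathway, differed by -0.22 (adjusted p = 0.817). The members that rose were of another kind. The polyunsaturated fatty acid desaturase Fads1 was 4.72 and 4.81 against 6.24 and 6.13 (1.42 ± 0.13, adjusted p = 0.000232), and Fads2 rose by 1.29 ± 0.17. The lipid droplet protein Pnpla3 was -3.70 and -3.61 against -0.60 and -0.47 (3.12 ± 0.36, adjusted p = 0.000893).

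Of 27 cholesterol synthesis genes, 10 fell and none rose, 26 lay below 0, and the median was -0.51. Without deficient-label replicate 3 the falls numbered 6, and without deficient-label replicate 4 they numbered 3. The enzymes of the pathway contributed 9 falls of 19 measured. Msmo1, a sterol demethylation enzyme, was 6.38 and 6.22 in wild-type and 5.24 and 5.0 in deficient-label livers (-1.18 ± 0.17, adjusted p = 0.00307). Cyp51, the lanosterol demethylase, was 4.36 and 4.15 against 3.41 and 3.17 (-0.96 ± 0.13, adjusted p = 0.00222), with another Cyp51 probe at -0.61 (adjusted p = 0.0886).

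Fatty acid oxidation and other genes linked to the nuclear receptor Ppara were mostly not called, with 5 of 56 higher and 4 lower (median -0.19). The falls numbered 1 without deficient-label replicate 4 or wild-type replicate 3, 2 without deficient-label replicate 3 and 10 without wild-type replicate 4. None of the 15 mitochondrial oxidation enzymes was called. Ppara itself differed by -0.05 (adjusted p = 0.958) and the carnitine transferase Cpt1a by 0.10 (adjusted p = 0.789). Lpl, the lipoprotein lipase, was 1.41 and 1.96 in wild-type and 2.96 and 3.36 in deficient-label livers (1.47 ± 0.20, adjusted p = 0.00234). The uncoupling proteins Ucp2 and Ucp3 rose by 1.62 ± 0.20 and 1.63 ± 0.21. The peroxisomal thiolase Acaa1b fell by 1.05 ± 0.12. The hormone Fgf21 differed by -0.05 (adjusted p = 0.978).

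Among 26 lipoprotein genes, 3 rose and 2 fell (median 0.14, with 4 falls without wild-type replicate 3). Apoc2, the cofactor of lipoprotein lipase, was 7.53 and 7.13 in wild-type and 9.21 and 8.96 in deficient-label livers (1.75 ± 0.15, adjusted p = 0.000157). Apoa4 rose by 1.92 ± 0.28, and Apoc3, an inhibitor of the same lipase, differed by 0.10 by its brightest probe (adjusted p = 0.767), beside 0.73 (adjusted p = 0.0487) and 0.41 (adjusted p = 0.0708) by its other Apoc3 probes. Lipc, the hepatic lipase, fell from 2.33 and 2.51 to -0.98 and -0.51 (-3.16 ± 0.19, adjusted p = 1.95e-05). Lipc and the endothelial lipase Lipg thus changed in the direction opposite to Lpl.

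Bile acid genes gave 9 falls and no rise among 27 members (median -0.29). The falls numbered 5 without deficient-label replicate 3, 3 without deficient-label replicate 4 and 3 without wild-type replicate 3. Abcc3, which exports bile acid conjugates to blood, was 5.53 and 5.65 in wild-type and 2.16 and 2.69 in deficient-label livers (-3.16 ± 0.23, adjusted p = 5.89e-05). Cyp39a1, an oxysterol hydroxylase, was 2.99 and 3.08 against 1.18 and 1.27 (-1.81 ± 0.15, adjusted p = 0.00015). Nr0b2, the repressor that bile acids induce through their nuclear receptor, was 1.77 and 1.68 against 0.89 and 0.75 (-0.90 ± 0.12, adjusted p = 0.00219). The main synthesis enzymes were not called. Cyp7a1, the rate-limiting enzyme, was 2.14 and 3.08 against 2.73 and 3.06 (0.29, adjusted p = 0.818), and Cyp8b1 differed by 0.27 (adjusted p = 0.549). Cyp7b1 differed by -0.26 (adjusted p = 0.808), and by -1.05 without wild-type replicate 4 (adjusted p = 0.0321). The canalicular export pump Abcb11 (-0.29, adjusted p = 0.235) and the uptake transporter Slc10a1 (0.02, adjusted p = 0.962) were not called by their brightest probes, while another Slc10a1 probe was lower (-1.11, adjusted p = 0.0033). Among 28 drug transporters, 2 rose and 5 fell, with 2 falls without wild-type replicate 3 or deficient-label replicate 4, and Slc22a15, of the organic cation transporter family, fell by 2.19 ± 0.29, beside -0.96 by another probe (adjusted p = 0.168).

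Cytochrome P450 genes fell more often than they rose, with 21 lower and 7 higher among 70 members (median -0.36). The falls numbered 12 or 13 without deficient-label replicate 3, deficient-label replicate 4 or wild-type replicate 3, and the rises numbered 3 without either deficient-label replicate. Several members of the Cyp2c family fell. Cyp2c50 was 8.48 and 8.38 in wild-type and 6.29 and 6.49 in deficient-label livers (-2.04 ± 0.17, adjusted p = 0.000149), Cyp2c37 fell by 1.88 ± 0.25 and Cyp2c54 fell by 1.82 ± 0.19. Cyp2c29, also of this family, was not called (-0.50, adjusted p = 0.0609). Cyp2d34 was -1.06 and -1.07 against -3.71 and -3.56 (-2.57 ± 0.23, adjusted p = 0.000212), while its relative Cyp2d40 rose from 7.19 and 6.82 to 8.35 and 8.44 (1.40 ± 0.19, adjusted p = 0.00247) and Cyp2d26 differed by 0.10 (adjusted p = 0.711). The Cyp2d genes were thus split in direction. The fatty acid hydroxylase Cyp4f14 and the epoxygenase Cyp2j5 fell by 0.95 and 0.88.

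Conjugating enzymes were more evenly divided, with 6 of 54 higher and 9 lower (median -0.14, and 3 each without deficient-label replicate 3). The flavin monooxygenase Fmo5 fell by 1.30 ± 0.17 and the glycosyltransferase Ugt3a1 fell by 1.01 ± 0.13. The sulfotransferases Sult3a2 and Sult1c2 rose by 2.46 ± 0.42 and 0.95, and Gstp1 rose as given above, while its near copy Gstp2 was not called (0.41, adjusted p = 0.0813).

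Of 25 complement genes, 5 fell and none rose (median -0.18, with 3 falls without deficient-label replicate 4). Of the 5, 4 were among the 7 terminal components, which build the membrane attack complex. C8b was 6.0 and 4.84 in wild-type and 2.18 and 1.36 in deficient-label livers (-3.65 ± 0.40, adjusted p = 0.000657). C8a was 5.56 and 4.52 against 2.51 and 2.13 (-2.72 ± 0.31, adjusted p = 0.000862). C8g, which encodes the remaining chain of the same complex, was 8.81 and 8.51 against 8.67 and 8.61 (-0.02, adjusted p = 0.962). C7 (-0.30, adjusted p = 0.603) and Hc, the haemolytic complement component (0.06, adjusted p = 0.907), were not called. C9, C8a and C8b stand on the male-biased list as well, so the lists overlap in these genes.

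Of 24 coagulation factors and inhibitors, 4 rose and none fell (median 0.17), with 3 of the rises among 16 factors. F7, which starts the extrinsic pathway, was 4.54 and 4.20 in wild-type and 6.09 and 6.08 in deficient-label livers (1.72 ± 0.13, adjusted p = 6.4e-05). F10 and F5 rose by 0.81 ± 0.10 and 0.76 ± 0.11. The plasma protein genes Itih4 and Ttr were not called by their brightest probes (0.43 and -0.17). Another probe of each was, at 1.36 for Itih4 (adjusted p = 0.00107) and -1.34 for Ttr (adjusted p = 0.000328). By brightest probes, 1 of 20 acute phase genes rose, which was Cp, and 1 fell, beside 8.22% of all members called. The falls numbered 3 without wild-type replicate 4 and 0 without wild-type replicate 3 or either deficient-label replicate.

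Of 39 interferon-stimulated genes, 13 fell and none rose, 36 lay below 0, and the median was -0.50. The falls numbered 5 without either deficient-label replicate and 8 without either wild-type replicate. Usp18, which removes the ubiquitin-like modifier Isg15 from proteins, was 1.56 and 1.93 in wild-type and -0.39 and 0.04 in deficient-label livers (-1.92 ± 0.20, adjusted p = 0.00047). Ifit1, a sensor of foreign RNA, was 0.16 and 0.08 against -1.12 and -1.0 (-1.18 ± 0.16, adjusted p = 0.00205). Xaf1 was 1.16 and 1.11 against 0.16 and 0.07 (-1.02 ± 0.12, adjusted p = 0.00114), and the chaperone Rtp4 fell by 0.75 ± 0.11. The 14 Kupffer cell markers moved in the same direction without a call, with summed signals of 275 and 279 against 221 and 215, among them Clec4f (-0.48, adjusted p = 0.117) and Vsig4 (-0.42, adjusted p = 0.121). Their part in the interferon result was not tested.

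Cytokine and chemokine genes gave 2 rises and 3 falls among 29 members, with 4 rises without wild-type replicate 3 and 1 fall without deficient-label replicate 3, deficient-label replicate 4 or wild-type replicate 4. The chemokine Ccl9 was 5.0 and 4.78 in wild-type and 6.29 and 6.19 in deficient-label livers (1.35 ± 0.12, adjusted p = 0.000173), the fractalkine receptor Cx3cr1 rose by 1.23 ± 0.19 and the cytokine Il18 fell by 0.75 ± 0.11. Of 22 measured Bcl6 partners and targets known from immune cells, 2 rose and 1 fell, with no rise without deficient-label replicate 4 and no fall without either deficient-label replicate, and none of the 7 corepressors was called.

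Glucose metabolism gave 6 falls and no rise among 38 members (median -0.15), with 3 falls without deficient-label replicate 3 or wild-type replicate 3 and 2 without deficient-label replicate 4. The fructose kinase Khk fell by 1.05 ± 0.12, while Pck1, the key enzyme of glucose production, differed by -0.33 (adjusted p = 0.359). Of 49 amino acid metabolism genes, 6 fell and 2 rose (median -0.11), with 3 falls without deficient-label replicate 3 or wild-type replicate 3 and at most 1 rise without any 1 female array. The alanine transaminase Gpt2 fell by 1.37 ± 0.15, the proline oxidase Prodh by 1.34 ± 0.11 and Csad, an enzyme of taurine synthesis, by 1.32 ± 0.16. Of 19 cell cycle genes, 1 rose and none fell (median 0.02), beside 4.37% of all members called higher. The gene that rose was the proliferation marker Mki67 (1.32 ± 0.20, adjusted p = 0.00423), and the 18 others were not called. Circadian, endoplasmic reticulum stress and p53 target lists held 1, 1 and 3 calls among 17, 18 and 15 members, and none of these calls belonged to a gene whose call held without each array in turn.

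Genes known to be imprinted, that is, expressed from 1 parental copy in some tissues, moved in both directions, with 3 of 16 higher and 3 lower (median 0.23). The parental copies were not told apart in these livers. The maternally expressed long noncoding RNA Meg3, chosen after its values were seen, was 2.05 and 0.90 in wild-type and -2.44 and -2.38 in deficient-label livers (-3.89 ± 0.32, adjusted p = 0.000129). The amino acid transporter Slc38a4 was 7.49 and 7.38 against 6.03 and 6.16 (-1.34 ± 0.13, adjusted p = 0.000356). The zinc-finger gene Peg3 rose from -3.03 and -3.29 to 2.26 and 1.36 (4.97 ± 0.29, adjusted p = 1.7e-05), and Snrpn rose by 0.87 ± 0.13. Among 6 measured crystallins, the proteins of the eye lens, Crybb3 rose from -1.85 and -3.05 to 3.71 and 2.87 (5.74 ± 0.50, adjusted p = 0.000191) and Cryaa fell by 1.64 ± 0.24. Of 17 axonemal genes 5 were measured, 2 rose and 1 fell, with 1 rise without deficient-label replicate 3 and no fall without wild-type replicate 4 or deficient-label replicate 4, and Dnah11 had the largest difference.

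Of 29 receptors of hormones and transmitters, 7 rose and 3 fell (4 rose without deficient-label replicate 3). Beside Ghr, Prlr, Adra2c and Insrr, which rose, the vasopressin receptor Avpr1a fell from 4.61 and 4.68 to 1.32 and 2.11 (-2.93 ± 0.23, adjusted p = 0.000111). Over all 47 lists, 210 of 909 different measured genes were called, 90 higher and 120 lower, beside 1929 of all 23467 members (8.22%). Listed genes all carry a symbol, and of the 14321 members with a symbol 1404 were called. The lists were written with earlier results of these data known, so their counts describe these livers and are no independent evidence of a direction.

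**Figure D4:**
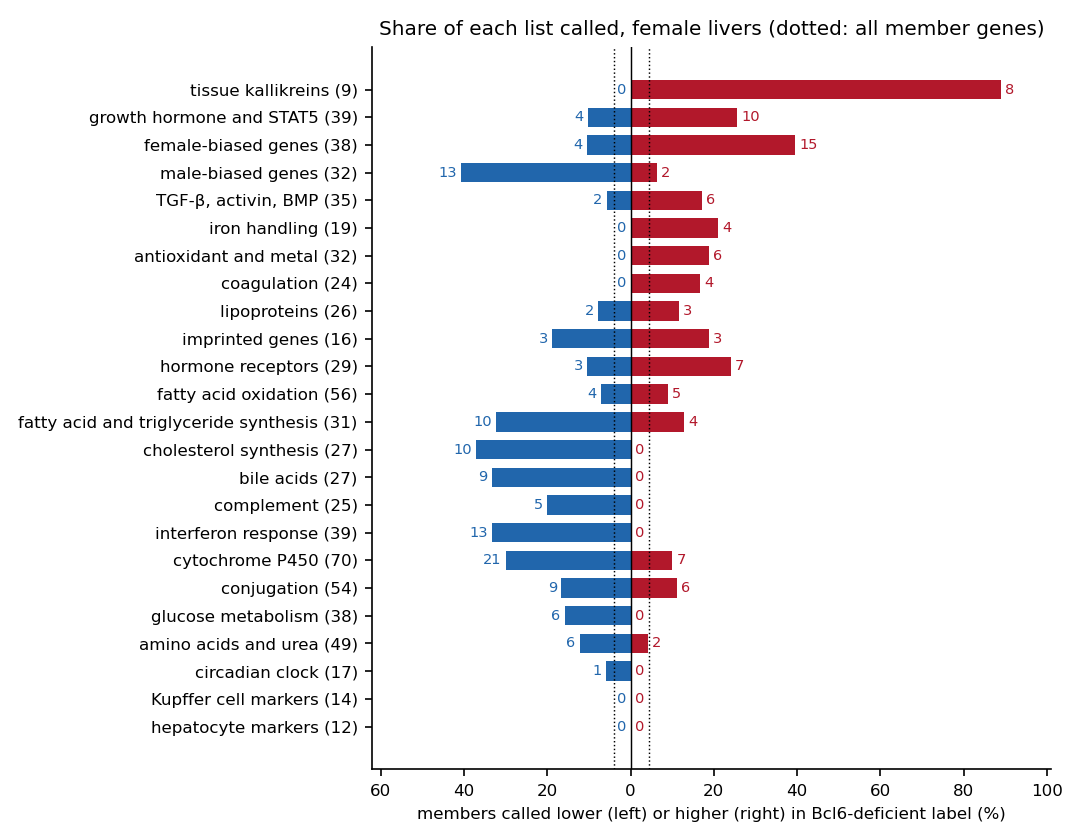
For 24 gene lists, the share of measured members called higher (to the right) and lower (to the left) in deficient-label livers, with the shares over all 23467 genes, 4.37% and 3.85%, as dotted lines. The kallikreins stand farthest to the right with 8 of 9 measured members, out of 14 listed. The interferon, cholesterol synthesis and bile acid lists have members called lower and none called higher.

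The males on the same slide show where the female response differs. A test of the difference between the female and the male genotype difference called 173 members (0.737%). Of these, 83 were also called in females, 39 of them called in males in the same direction, 21 called in males in the opposite direction and 23 not called in males. Leaving out deficient-label replicate 3 or 4 of the females gave 78 or 75, and leaving out male replicate 3 of the wild type or replicate 4 of the deficient label gave 99 or 102. For the other 1846 genes called in females no difference between the sexes was called, which does not show that the sexes respond alike. Gpx3, for example, differed by 6.95 in females and 6.07 in males.

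The genes with the largest differences between the sexes included several of the sex-biased lists. Cyp2b13 fell by 4.39 in females and rose by 7.10 in males, a difference between the sexes (female minus male) of -11.49 (adjusted p = 9.86e-06). Acnat2 fell by 2.25 in females and rose by 1.18 in males (-3.43, adjusted p = 0.00256), and Mfsd2a fell by 3.54 and differed by 0.47 (-4.0, adjusted p = 0.00592). Mfsd2a was not called in males, and the other 2 genes changed in opposite directions. Cyp2b9 and Cyp2b10, which were not called in females, rose by 6.49 and 5.45 in males, and the sexes differed (adjusted p = 0.000577 and 0.00156).

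Other genes rose in both sexes and less in females. Cux2 rose by 2.53 in females and 8.02 in males (-5.49, adjusted p = 0.00014), and the magnesium transporter family member Nipal1 rose by 1.61 and 8.02 (-6.41, adjusted p = 1.08e-05). Prlr rose by 2.59 and 5.15 (-2.55, adjusted p = 0.00115), Nt5e by 1.34 and 4.13 (-2.79, adjusted p = 0.000239) and the aldose reductase relative Akr1b7 by 2.23 and 5.12 (-2.89, adjusted p = 0.00141). Bmp7 was the reverse, with 4.15 in females and 1.75 in males (2.40, adjusted p = 0.00154).

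Cyp2d9 and Cyp2d34, both enzymes of male liver, had the smaller measured fall in females. Cyp2d9 fell by 1.10 in females and by 4.39 in males (3.28, adjusted p = 0.00014), and Cyp2d34 fell by 2.57 in females, beside -6.63 in males (4.06, adjusted p = 0.00104). The weakest signals scored above background in deficient-label females were -4.21 and -4.31. From the wild-type female level of Cyp2d34, given above, a fall of the male size could not have been measured above background. For Elovl3 the fitted difference between the sexes was 4.10 (adjusted p = 0.0022), which is no bound, since Elovl3 was not above background in deficient-label livers of females. Gstp1 rose by 0.98 in females and fell by 1.85 in males (2.84, adjusted p = 0.000239), and Onecut1 rose by 1.25 and fell by 1.15 (2.40, adjusted p = 0.00483). The test called 0.737% of all members, beside 22 of 38 female-biased and 9 of 32 male-biased genes. It called 14 of 54 conjugating enzymes and 13 of 70 cytochrome P450 genes, so the interferon-stimulated genes do not stand alone here. Xaf1 fell by 1.02 in females and rose by 0.56 in males, and the difference between the sexes was called (adjusted p = 0.00492). Of the 39 interferon-stimulated genes, 9 differed between the sexes by this test, beside 3 when either deficient-label female was left out and 7 or 6 when the wild-type female numbered 3 or 4 was.

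**Figure D5:**
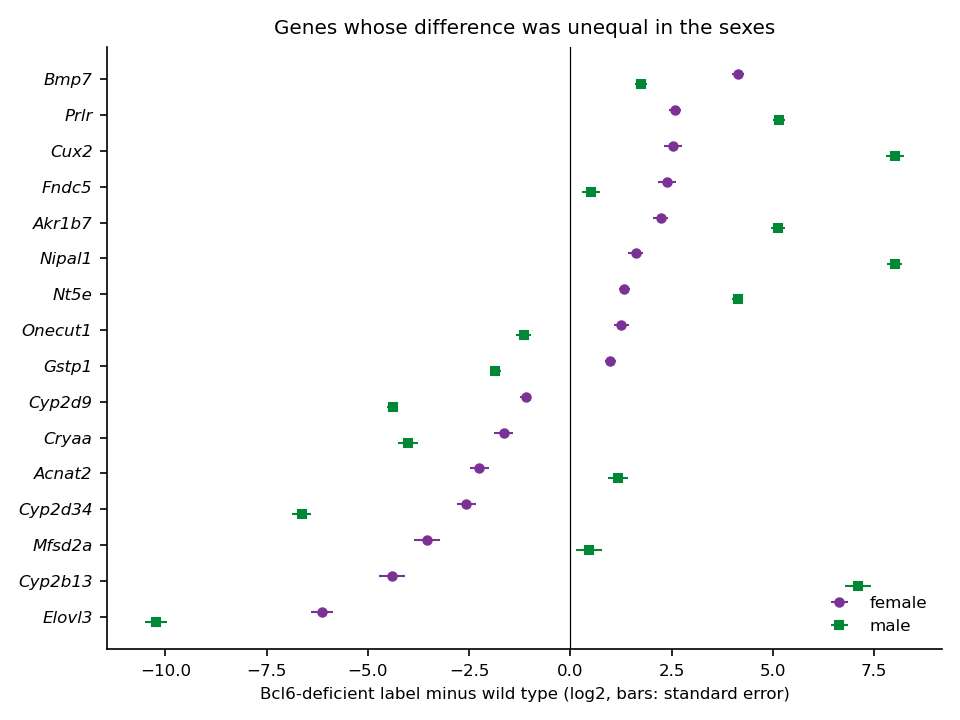
The deficient-label minus wild-type difference (log2, x axis) in females (circles) and males (squares) for the 16 genes named for their difference between the sexes, with bars for the standard error. Cyp2b13 has the widest gap, from -4.39 in females to 7.10 in males, while Bmp7 and Fndc5 are farther right in females. The values of Elovl3 are fitted ones and no bounds.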

How the data were processed

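RNA from 8 whole livers (0.1 ug each, Trizol) was labelled with Cy3 and hybridised to 8 arrays of 1 Agilent slide with 1 scan time. The deposited value table holds log2 signals from which the authors had subtracted each array's 75th percentile, as a comparison showed with the deposited scanner intensities, which Feature Extraction had corrected for background, per the file headers (version 11.5.1.1; the submitters' processing notes name 9.1.3.1). A gene was represented by its brightest probe among those well above background in both livers of any group.

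The 4 group means were fitted over all 8 arrays with limma 3.58.1 in R 4.3.3, with variance following intensity (4 residual and 4.77 prior degrees of freedom), and p-values were adjusted by Benjamini-Hochberg over 23870 genes. The method was tested on simulated data. A gene was named if its call held without each of the 8 arrays in turn, its female replicates differed by under 1 log2 unit and it was among the 15 largest differences, 8 largest bounds, 4 largest per list or 8 largest sex differences in each direction. To these came genes named for their role and relatives of named genes. The members, lists and tests were chosen with earlier results of these data known. Not every gene picked by this rule is reported here, though all are counted. Promoters and gene names came from RefSeq (GRCm38.p6), while the array was designed on another build. Alternatives changed the source of values, background correction, normalization, filter, variance model, arrays and probe choice, or added the replicate number as a block. Python 3.11.15 with matplotlib 3.10.9 drew the figures.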

Additional observations from a re-analysis of the deposited data

Results flagged for a closer look

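The genotype difference differed between female and male livers for 173 genes by the interaction test of limma, with an adjusted p under 0.05. The values below are the female difference minus the male difference on the log2 scale, with n = 2 arrays in each of 4 groups.

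The difference was higher in females for Elovl3 (4.10), Cyp2d34 (4.06), Cyp2d9 (3.28), Gstp1 (2.84), Onecut1 (2.40), Bmp7 (2.40), the lens crystallin Cryaa (2.36) and Fndc5, the precursor of irisin (1.87). It was lower in females for Prlr (-2.55), Nt5e (-2.79), Akr1b7 (-2.89), Acnat2 (-3.43), Mfsd2a (-4.0), Cux2 (-5.49), Nipal1 (-6.41) and Cyp2b13 (-11.49). Of these 16 genes, Cryaa (adjusted p = 0.019) kept its call in 2 of 8 fits that left out 1 array and Fndc5 (adjusted p = 0.0399) in 1 of 8. The other 14 kept theirs in all 8.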

How the results depend on the processing

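Against 1929 calls, there were 1932 with scanner signals, 1729 with normexp, 2003 with quantile normalization, 1924 with median centring, 1415 with no filter, 1673 with probes above background on all 4 female arrays, 1425 with no intensity trend, 1606 with the female arrays alone and 2076 with every probe. Leaving out 1 array gave 877 to 1790, the lowest without deficient-label replicate 3. Calls of at least 2-fold numbered 571 with normexp, which adds an offset to every signal, and 725 to 1124 without 1 array. Genes that differed between the sexes numbered 72 with no filter, 83 with no intensity trend and 75 to 192 without 1 array. Genes called in any list numbered 123 to 226 without 1 array, against 210. Bcl6 ranged from 0.26 to 2.41. The replicate block gave 2193 calls and 253 genes that differed between the sexes. With it Cish was called (adjusted p = 0.0129). The replicate numbers were not taken as a pairing, since the labels give no shared origin and same-numbered samples deviated together by 0.32 (correlation) between the female groups but by 0.0061 to 0.1124 between the others.

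With no intensity trend the falls in the interferon, lipogenesis and bile acid lists numbered 7, 5 and 4, and the rises in the female-biased list 9. With no filter the falls in the interferon and lipogenesis lists numbered 8 and 5.

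Of 2179 values of 129 named genes under an alternative, 2150 kept their direction and call. Most of these genes were named because their call held without each array, so this count follows largely from the choice. Of all 1929 calls, 68.3% were kept with no filter and 69.8% with no intensity trend. The sign of some uncalled genes turned. With quantile normalization Ppara was 0.0017, and with normexp Fgf21 was 0.052. Without 1 array in turn, Igf1 ranged from -0.42 to 0.086, Ppara from -0.43 to 0.33, Cyp7a1 from -0.18 to 0.76, Cyp7b1 from -1.05 to 0.53, Fgf21 from -0.74 to 0.63, Srebf1 from -0.62 to 0.19 and Hnf4a from -0.15 to 0.28. The cause was not tested. Signal over background limits what can be said of genes near the background level.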
